A study of Mus musculus with 10 samples.

Results

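The endoplasmic reticulum (ER) chaperones and XBP1 targets are the genes that keep secreted proteins folded, and hepatocytes, which make most plasma proteins, depend on them heavily. The group held 10 genes, Hspa5, Hsp90b1, Xbp1, Dnajb9, Sdf2l1, Herpud1, Creld2, Pdia4, Edem1 and Calr, which were picked by name out of the 55421 gene identifiers of the count table. All 10 had enough counts to be among the 22449 genes tested. Poly(A) RNA from whole livers of 10 male C57BL/6 mice was sequenced, and every mouse had received an AAV8 virus at 6 months of age, 3 weeks before the liver was taken. AAV8, an adeno-associated virus, takes its cargo to the liver, and the Tbg promoter keeps expression of that cargo to hepatocytes. The H3.3 KO group was 4 mice with floxed H3f3a and H3f3b, the genes for the histone variant H3.3, that received AAV8-Tbg-Cre. The WT Cre controls were 3 wild-type mice given the same Cre virus, and the MCS controls were 3 floxed mice given AAV8-Tbg-MCS, which carries no Cre. The genotype field of the labels names HIRA for the floxed mice, whereas the titles name the H3.3 genes, and the groups follow the titles. Cre acts in hepatocytes, and the other cells of the liver still have both genes.

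When unfolded proteins build up in the ER, 3 sensors in its membrane, IRE1 (Ern1), PERK (Eif2ak3) and ATF6, start the unfolded protein response. IRE1 splices Xbp1 mRNA into the form that encodes the active transcription factor, PERK slows translation and raises ATF4, and ATF6 is cut to release a transcription factor. XBP1 and ATF6 then raise the genes for chaperones and for ER-associated degradation (ERAD), the route by which misfolded proteins leave the ER and reach the proteasome. In the liver this response also follows feeding and the demand for secretion. Counts per gene do not separate spliced from unspliced Xbp1, so the activity of XBP1 itself was not measured.

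The 2 DNA elements that ATF6 and XBP1 are best known to use in such genes are the ER stress response element (ERSE, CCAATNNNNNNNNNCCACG) and ERSE-II (ATTGGNCCACG). Both were searched on both strands in the 250 bases before the RefSeq start of each gene (build GRCm38.p6), and all 10 members had such a window. An ERSE was found before 4 members, Hspa5, Hsp90b1, Creld2 and Calr, against 0.113% of the 32851 mouse promoters in the table. An ERSE-II was found before Herpud1, against 0.0304% of all promoters. The unfolded protein response element TGACGTGG was found before none of the members and in 0.563% of promoters. These genes were gathered as known targets of the response, so the difference in shares describes how the group was made. The matches are shown in windows of 30 bases read along the gene's own strand from 5′ to 3′, with the fixed letters of the element in capitals, because they let the members with and without an element be told apart below. Where the capitals read CGTGG and ATTGG, the ERSE lies on the opposite strand.
Hspa5, chr2:34772020-34772049, plus strand: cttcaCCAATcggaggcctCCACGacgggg
Hsp90b1, far copy, chr10:86705632-86705661, minus strand: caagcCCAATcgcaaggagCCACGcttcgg
Hsp90b1, near copy, chr10:86705527-86705556, minus strand: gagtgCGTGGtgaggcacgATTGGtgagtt
Creld2, chr15:88819515-88819544, plus strand: cttctCGTGGcgagcctcaATTGGtccaca
Calr, chr8:84847069-84847098, minus strand: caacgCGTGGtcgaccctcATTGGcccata
Herpud1 (ERSE-II), chr8:94386368-94386397, plus strand: cgggcgctgATTGGgCCACGttggacactg

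The ERSE of Hspa5 ran from base -65 to -47 before the start, and those of Hsp90b1 from -212 to -194 and from -107 to -89. In Creld2 it ran from -126 to -108 and in Calr from -162 to -144, and the ERSE-II of Herpud1 ran from -52 to -42. With 1 mismatch allowed in the CCACG part, a further match was found before Pdia4 and another before Hsp90b1, which 0.804% of all promoters also have. No match to any of these elements was found in the windows of Xbp1, Dnajb9, Sdf2l1 and Edem1, which says only that these letters are not in them. The map of elements shows where each lay.

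**Figure D1:**
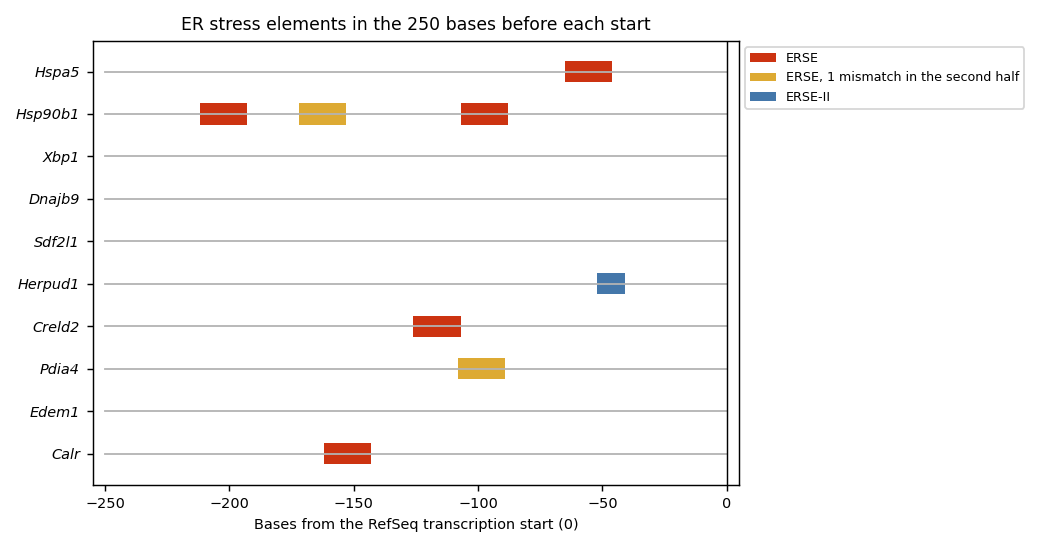
Positions of ER stress elements in the 250 bases before the RefSeq start of each of the 10 members. The horizontal axis gives bases from the start at 0, each bar spans 1 match on either strand, and bars occur in 6 of the 10 rows.

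Total counts ran from 14998426 (KO 1) to 26096141 (MCS 1), and the factors that scale them (TMM) from 0.858 to 1.11. H3f3a, which checks the labels, was at 16.0 to 19.0 CPM (counts scaled to a library of fixed size, with TMM factors) in H3.3 KO livers and 59.9 to 63.7 in controls, and H3f3b at 39.8 to 56.7 and 136 to 204. Hepatocyte markers summed to 82432 to 96345 CPM in H3.3 KO livers and 107747 to 157938 in controls, so the labelled cell type was present in all livers. Summed marker RNA of plasma cells, macrophages and stellate cells was higher in every H3.3 KO liver than in every control, and the values stand beside the results below. The labels give no batch, and p-values measure only the spread between these livers. In whole tissue, fewer cells of a type and less RNA per cell cannot be told apart.

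In H3.3 KO livers the ER chaperones and XBP1 targets moved in both directions, and most did not pass the test. Against all 6 controls, 3 of the 10 passed the test (edgeR quasi-likelihood test, adjusted p under 0.05), whereas 36.3% of all genes tested did. Dnajb9 rose, against a background of 19.7% of genes called higher, and Herpud1 and Sdf2l1 fell, against 16.6% called lower. Of all calls 54.3% were higher, and 72.2% with library size scaling. None of the 10 passed with an absolute log2 fold change over 1, which 18.7% of all genes did. The median log2 fold change of the members was 0.03, beside -0.003 over all genes. CPM values of H3.3 KO and control livers did not overlap for 2 members, Dnajb9 and Edem1, beside 24.5% of all genes. In FPKM (fragments scaled by transcript length and library size) the values of Edem1 did overlap.

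**Figure D2:**
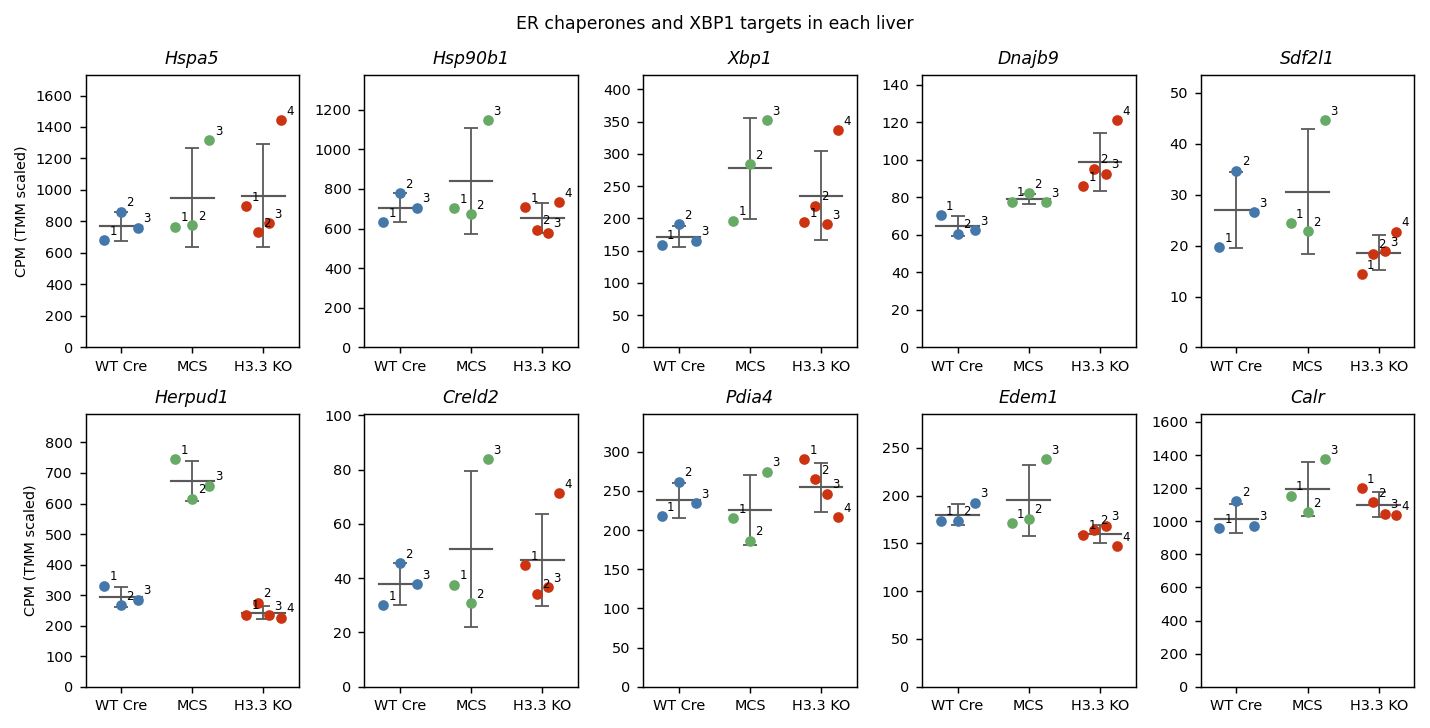
CPM (TMM scaled) of each member in every liver, by group, with the replicate number beside each point. Lines and bars are means and SD (n = 3, 3 and 4), and MCS 3 is the highest of all 10 livers for 6 members.

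Among the chaperones of the ER lumen, Hspa5 encodes BiP, the HSP70 of the ER, which binds unfolded chains and holds the stress sensors inactive. Hspa5 was at 682, 863 and 759 CPM in WT Cre 1 to 3, 767, 775 and 1315 in MCS 1 to 3, and 897, 730, 788 and 1444 in KO 1 to 4. MCS 3 and KO 4 stood above all the others, and the groups overlapped. The log2 fold change against all controls was 0.17 ± 0.22 (SE, adjusted p = 0.597, edgeR), with a 95% confidence interval of -0.31 to 0.64. Without KO 4 it was -0.09, so its sign rested on that liver.

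Hsp90b1 encodes GRP94, the HSP90 of the ER, which finishes the folding of a limited set of clients. It was at 632, 779 and 705 CPM in WT Cre 1 to 3, 702, 673 and 1148 in MCS 1 to 3, and 707, 594, 580 and 733 in KO 1 to 4. MCS 3 was again the highest liver, and KO 4, the liver with most Hspa5, was inside the range of the controls. The log2 fold change was -0.24 ± 0.17 (SE, adjusted p = 0.280, edgeR), with an interval of -0.60 to 0.11.

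Calr encodes calreticulin, a lectin chaperone that holds glycoproteins and ER calcium. Calr was at 957, 1121 and 973 CPM in WT Cre 1 to 3, 1155, 1055 and 1374 in MCS 1 to 3, and 1200, 1115, 1046 and 1036 in KO 1 to 4. In CPM all 4 KO livers lay inside the range of the controls. In FPKM Calr was at 516, 524, 496.3 and 488 in KO 1 to 4 and at 385 to 495.9 in the controls, so only KO 4 lay inside. Its log2 fold change was -0.01 ± 0.12 (SE, adjusted p = 0.967, edgeR), with an interval of -0.27 to 0.26, the value closest to 0 among the members, and its sign turned with the scaling.

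Pdia4 encodes ERp72, a protein disulfide isomerase, which forms and rearranges the disulfide bonds of secreted proteins. It was at 218, 262 and 235 CPM in WT Cre 1 to 3, 215, 186 and 274 in MCS 1 to 3, and 290, 265, 247 and 217 in KO 1 to 4. The groups overlapped, and KO 4 was the lowest of the KO livers here. The log2 fold change was 0.14 ± 0.13 (SE, adjusted p = 0.435, edgeR), with an interval of -0.14 to 0.41.

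Creld2 encodes a secreted protein with disulfide isomerase activity whose gene is a known target of the response. It was at 30.1, 45.5 and 37.7 CPM in WT Cre 1 to 3, 37.6, 30.7 and 83.8 in MCS 1 to 3, and 44.8, 34.3, 36.7 and 71.4 in KO 1 to 4. MCS 3 and KO 4 again stood above the others. The log2 fold change was 0.08 ± 0.32 (SE, adjusted p = 0.868, edgeR), with an interval of -0.63 to 0.80, the widest of the 10 members.

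The co-chaperones moved apart. Dnajb9 encodes ERdj4, a J-domain partner of BiP that helps to bring misfolded proteins to ERAD and to keep IRE1 inactive. It was at 70.6, 60.6 and 62.5 CPM in WT Cre 1 to 3, 77.7, 82.1 and 77.3 in MCS 1 to 3, and 86.1, 95.3, 92.6 and 121 in KO 1 to 4. Every KO liver was above every control. Dnajb9 differed from all controls by a log2 fold change of 0.46 ± 0.12 (SE, adjusted p = 0.00925, edgeR), with an interval of 0.20 to 0.72.

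Sdf2l1 encodes a partner of BiP and its J-domain proteins that keeps misfolded chains from aggregating. It was at 19.7, 34.7 and 26.6 CPM in WT Cre 1 to 3, 24.3, 22.8 and 44.6 in MCS 1 to 3, and 14.3, 18.4, 18.9 and 22.8 in KO 1 to 4. KO livers 1 to 3 were below all controls, and KO 4 was above WT Cre 1 alone. Its log2 fold change was -0.63 ± 0.22 (SE, adjusted p = 0.0437, edgeR), with an interval of -1.11 to -0.14. The call ended without WT Cre 2, WT Cre 3, MCS 3, KO 1, KO 2 or KO 3, where the adjusted p ran from 0.05004 to 0.116, and also with library size scaling (log2 fold change -0.43, adjusted p = 0.131).

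Xbp1 encodes the transcription factor of the IRE1 branch. It was at 159, 191 and 166 CPM in WT Cre 1 to 3, 197, 284 and 353 in MCS 1 to 3, and 194, 220, 191 and 337 in KO 1 to 4. MCS 3 and KO 4 were the highest, and the highest WT Cre control was less than 1 CPM below the lowest KO liver. The log2 fold change against all controls was 0.07 ± 0.25 (SE, adjusted p = 0.861, edgeR), with an interval of -0.47 to 0.61. It was 0.45 ± 0.23 (SE, adjusted p = 0.158) against the WT Cre controls and -0.24 ± 0.22 (SE, adjusted p = 0.456) against the MCS controls.

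Herpud1 and Edem1 serve ERAD. Herpud1 encodes HERP, an ER membrane protein that helps to assemble the ubiquitin ligase complex of ERAD. It was at 330, 267 and 285 CPM in WT Cre 1 to 3, 745, 616 and 659 in MCS 1 to 3, and 237, 275, 234 and 226 in KO 1 to 4. The 3 MCS livers were far above the other 7, all of which had received the Cre virus, and KO and WT Cre livers overlapped. The log2 fold change against all controls was -0.99 ± 0.31 (SE, adjusted p = 0.0265, edgeR), with an interval of -1.67 to -0.32, and the call ended without KO 1, KO 3 or KO 4, where the adjusted p ran from 0.0646 to 0.0717.

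That value averages over 2 control groups that differed from each other. Herpud1 was lower in WT Cre than in MCS controls by a log2 fold change of -1.19 ± 0.13 (SE, adjusted p = 0.00117, edgeR). It fell against the MCS controls, by -1.47 ± 0.12 on the log2 scale (SE, adjusted p = 8.40e-06), and was at -0.28 ± 0.12 (SE, adjusted p = 0.111) against the WT Cre controls. The control groups differ both in genotype and in virus, and these cannot be told apart.

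Edem1 encodes a mannosidase-like protein that pulls misfolded glycoproteins out of the folding cycle. It was at 174, 174 and 193 CPM in WT Cre 1 to 3, 171, 176 and 238 in MCS 1 to 3, and 159, 165, 168 and 147 in KO 1 to 4. In TMM-scaled CPM every KO liver was below every control, although the gap to the lowest control was small. In FPKM the groups overlapped, with 22.6 to 27.2 in KO livers and 23.8 to 29.6 in controls. Against the 6 controls it differed on the log2 scale by -0.23 ± 0.11 (SE, adjusted p = 0.126, edgeR), with an interval of -0.47 to 0.01, so it did not pass.

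Against each kind of control separately the counts were smaller. Against the WT Cre controls 1 of the 10 members passed, where 28.4% of genes did, and it was Dnajb9 (log2 fold change 0.61 ± 0.13, SE, adjusted p = 0.00360, edgeR). Against the MCS controls 1 of 10 passed, where 32.0% of genes did, and it was Herpud1. Dnajb9 was at 0.32 ± 0.12 (SE, adjusted p = 0.0656) there, and Sdf2l1 at -0.71 ± 0.26 (SE, adjusted p = 0.0620). Between the WT Cre and MCS controls 1 of 10 differed, again Herpud1, beside 0.927% of all genes. In that comparison Xbp1 had a log2 fold change of -0.69 ± 0.24 (SE, adjusted p = 0.287) and Dnajb9 of -0.29 ± 0.13 (SE, adjusted p = 0.461), and neither passed although their values did not overlap. The comparisons of KO with each kind of control share the KO livers. The columns of control libraries were matched to their groups by library number, so values for 1 kind of control rest on that match.

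**Figure D3:**
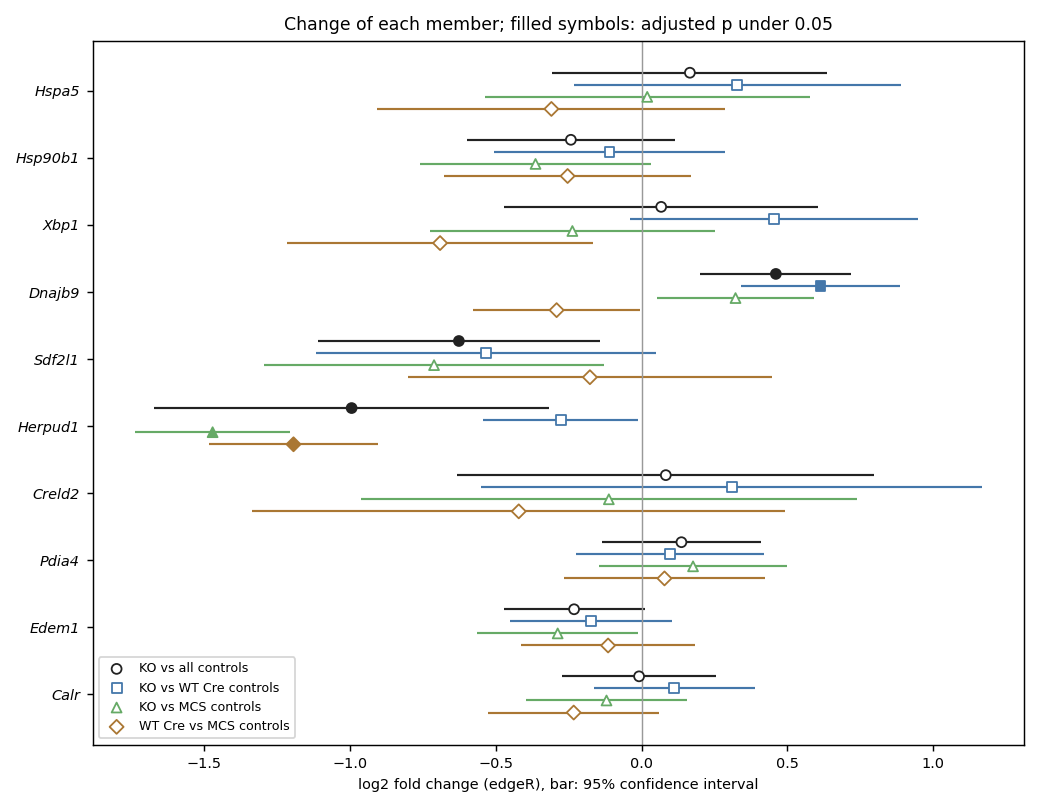
log2 fold change (edgeR) of each member in 4 comparisons, with bars for the 95% confidence interval and filled symbols for an adjusted p under 0.05. Dnajb9, Sdf2l1 and Herpud1 are filled against all controls, and Herpud1 is the member filled between the 2 kinds of control.

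Livers of the same group also differed from each other. MCS 3 was above the mean of the controls for all 10 members, by a median of 0.59 on the log2 scale, and was the highest of all 10 livers for Hsp90b1, Xbp1, Sdf2l1, Creld2, Edem1 and Calr. KO 4 was the highest of the KO livers for 6 members, Hspa5, Hsp90b1, Xbp1, Dnajb9, Sdf2l1 and Creld2, and of all livers for Hspa5 and Dnajb9. It was the lowest KO liver for the other 4, Herpud1, Pdia4, Edem1 and Calr. WT Cre 1 was below the control mean for all 10 members and the lowest liver for 4 of them. The coefficient of variation in the 6 controls was largest for Creld2 (45.6%), Herpud1 (44.0%) and Xbp1 (34.2%) and smallest for Dnajb9 (12.2%).

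Cell type markers also varied between these livers. Kupffer cell and macrophage markers summed to 449 CPM in MCS 3 and to 240 to 288 in the other controls, and to 1225 in KO 4 and 563 to 911 in the other KO livers. Hepatocyte markers were highest in MCS 3 (157938 CPM) and lowest in KO 4 (82432 CPM). Their part in the levels of the members was not tested. With both livers left out, an alternative chosen after seeing the data, 2 members passed against all controls, Dnajb9 (log2 fold change 0.37, adjusted p = 0.0258) and Sdf2l1 (-0.57, adjusted p = 0.0268), and Herpud1 did not (-0.85, adjusted p = 0.115).

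**Figure D4:**
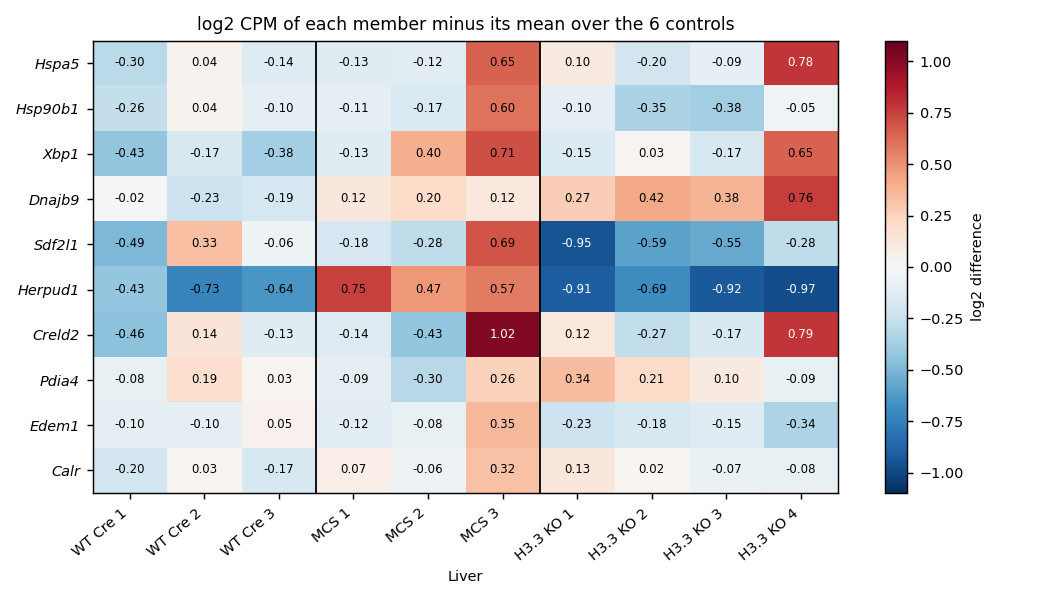
log2 CPM of each member in every liver minus its mean over the 6 controls, with groups parted by vertical lines. The column of MCS 3 is above 0 in all 10 rows, and KO 4 is above 0 for some members and below 0 for others.

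Levels of different genes can be compared per length of transcript, as FPKM (fragments scaled by transcript length and library size). In the controls the order of mean FPKM was Calr (436 ± 42.0, SD, n = 6), Hspa5 (304 ± 65.3), Hsp90b1 (233 ± 43.0), Herpud1 (202 ± 81.0), Xbp1 (87.2 ± 24.3), Pdia4 (73.7 ± 10.9), Edem1 (25.9 ± 2.47), Dnajb9 (24.95 ± 2.10), Creld2 (23.4 ± 9.83) and Sdf2l1 (23.0 ± 6.67). The ranges of neighbours over the 6 controls overlapped except at 1 step, from Pdia4, never under 57.2 FPKM, to Edem1, never over 29.6. Within each of the 6 controls, however, Calr was also above Hspa5, Hspa5 above Hsp90b1, and Herpud1 above Xbp1. The remaining steps were reversed in some controls. In H3.3 KO livers Calr (506 ± 16.9, SD, n = 4) and Hspa5 (397 ± 155) again led. Herpud1 was at 118 ± 11.1 FPKM and Dnajb9 at 40.6 ± 8.69, above Creld2 (29.5 ± 12.4), Edem1 (25.1 ± 1.90) and Sdf2l1 (17.4 ± 3.32).

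Genes were ranked by how closely their log2 CPM, centred per gene, followed that of a member over the 10 livers, among 7927 genes with a mean of at least 10 CPM. Closest to Hspa5 were Hspd1, D1Ertd622e and Oga, with root mean square differences of 0.126, 0.141 and 0.149 on the log2 scale. Hspd1, the mitochondrial HSP60, was at 334 to 353 CPM in 5 controls and 482 in MCS 3, and at 320 to 398 in KO 1 to 3 and 558 in KO 4. Closest to Xbp1 were Rbm15, Rrs1 and Tsc22d2, at 0.164, 0.174 and 0.178. All these genes share libraries and scaling with the members, and the values are a description.

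Upstream of the members are the ER stress sensors. Of 10 such sensors, their ER-bound relatives and the proteases that cut them, 5 rose and 1 fell against all controls (median log2 fold change 0.50), beside 36.3% of all genes called, and 4 to 6 rose over the other settings tried. Creb3l2, the riser with the largest p (log2 fold change 1.32 ± 0.43, SE, adjusted p = 0.0385, edgeR), lost its call with no filter, with the block and without any WT Cre liver, MCS 1, MCS 2, KO 3 or KO 4. Eif2ak3, which encodes PERK, was at 13.2 to 15.9 CPM in the controls and at 15.7, 27.04, 34.0 and 42.7 in KO 1 to 4, and KO 1 alone overlapped the controls (log2 fold change 1.05 ± 0.20, SE, adjusted p = 0.00181, edgeR). Creb3l1 (OASIS) rose by 1.65 ± 0.29 from a low level (adjusted p = 0.000687), Atf6 by 0.51 ± 0.13 (adjusted p = 0.00730) and Atf6b by 0.48 ± 0.12 (adjusted p = 0.00616). Creb3l3, the hepatocyte member of the CREB3 family, fell by 0.36 on the log2 scale (adjusted p = 0.0214). It was not called with library size scaling or on FPKM values. Ern1, which encodes IRE1, was at 0.51 ± 0.19 (adjusted p = 0.0536), and over the other settings its adjusted p ran from 0.000176 to 0.243.

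In the PERK and ATF4 branch 4 of 10 genes rose and 1 fell, beside 36.3% of all genes called. The count moved with the control, with 5 higher and 1 lower against the WT Cre controls, 3 higher and 3 lower against the MCS controls, and 2 of 10 lower in WT Cre than in MCS controls, beside 0.927% of all genes called there. Atf3, a stress-induced transcription factor, was at 0.611 to 1.73 CPM in the controls and 4.63 to 9.72 in KO livers (log2 fold change 2.68 ± 0.26, SE, adjusted p = 1.23e-05, edgeR). Sesn2 rose by 1.06 ± 0.24 (adjusted p = 0.00542) and Nupr1 by 1.21 ± 0.30 (adjusted p = 0.00672), the latter not called on FPKM values (adjusted p up to 0.0851). Chac1, a glutathione-degrading enzyme, fell from 1.92 to 10.8 CPM in the controls to 0.237 to 0.382 in KO livers (log2 fold change -4.10 ± 0.61, adjusted p = 0.000499). Atf4 was at 0.07 ± 0.13 (adjusted p = 0.744), and Ddit3, which encodes CHOP, at 0.04 ± 0.13 (adjusted p = 0.846). The name Ddit3 has 2 gene identifiers in the count table, and only the first was used. An entry of the same name overlaps it on the same strand, so its counts are less certain.

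Among the folding enzymes outside the 10 members, Pdia6 encodes a protein disulfide isomerase that works with BiP. Pdia6 was at 250 to 415 CPM in the controls and at 798, 564, 641 and 567 in KO 1 to 4, without overlap (log2 fold change 1.02 ± 0.15, SE, adjusted p = 0.000181, edgeR). Of 16 disulfide isomerases and ER oxidases, 2 rose, Pdia6 and Txndc5 (0.37 ± 0.10, adjusted p = 0.0117), and 4 fell, led by Prdx4 (-0.85 ± 0.12, adjusted p = 0.000166) and Tmx4 (-0.64 ± 0.14, adjusted p = 0.00314), and with library size scaling 4 rose and 3 fell. Of 10 HSP70 co-chaperones of the ER, Dnajc10 rose (0.43 ± 0.08, adjusted p = 0.00157) and none fell. Of 11 lectin chaperones and glycan-trimming enzymes, Prkcsh rose (0.43 ± 0.09, adjusted p = 0.00216), and Uggt2 (-1.26 ± 0.24, adjusted p = 0.00134) and Edem2 (-0.36 ± 0.10, adjusted p = 0.0114) fell. Edem2 was not called with library size scaling, on FPKM values or with the block (adjusted p up to 0.215), and with library size scaling 4 genes of that list rose and 1 fell. Called were 37.5% of the isomerases and oxidases, 10% of the co-chaperones and 27.3% of the lectin list, beside 36.3% of all genes.

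An exact ERSE was also found before Pdia6, Dnajc3, Canx, Syvn1 and Derl3 of these lists, of which Pdia6 and Derl3 rose and Syvn1 fell. Several genes of the lists, Hyou1 and Manf among them, had no promoter window and were not searched. Dnajc3 was at 0.14 ± 0.13 (SE, adjusted p = 0.451, edgeR), Canx at 0.00099 ± 0.11 (adjusted p = 0.997) and Syvn1 at -0.54 ± 0.15 (adjusted p = 0.0143, not called with library size scaling or on FPKM values). These 3 are named for their element.

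In ERAD 3 of 18 genes rose and 6 fell (50%, beside 36.3% of all genes called). The direction of that split turned with the scaling, to 5 and 2 with library size alone. Derl2, a derlin of the exit channel, was at 151 to 174 CPM in the controls and 61.5 to 113 in KO livers (log2 fold change -1.02 ± 0.15, SE, adjusted p = 0.000175, edgeR). Its relative Derl3 rose from 0.804 to 3.29 CPM to 4.21 to 7.10 (1.58 ± 0.33, adjusted p = 0.00279). Sel1l, the partner of the ligase HRD1, fell by 0.50 on the log2 scale (adjusted p = 0.00199) and was not called on FPKM values. Selenos (0.40 ± 0.09, adjusted p = 0.00323) and Faf2 (0.21 ± 0.08, adjusted p = 0.0467) rose.

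The calls for protein entry, glycosylation and export from the ER moved with the scaling. In the translocon and signal peptidase, 2 of 16 genes rose, Ssr2 (0.54 ± 0.09, adjusted p = 0.000575, edgeR) and Srprb (0.39 ± 0.09, adjusted p = 0.00445), and 2 fell, Spcs3 (-0.53 ± 0.10, adjusted p = 0.00148) and Ssr4 (-0.44 ± 0.09, adjusted p = 0.00249). Of 12 oligosaccharyltransferase genes Ost4 rose (0.45 ± 0.11, adjusted p = 0.00729). In COPII and KDEL receptor transport, Kdelr3 (1.96 ± 0.37, adjusted p = 0.00123) and Tmed10 (0.26 ± 0.08, adjusted p = 0.0294) rose, and Kdelr1 (-0.59 ± 0.09, adjusted p = 0.000377) and Sec24c (-0.33 ± 0.09, adjusted p = 0.0105) fell, of 16. Ssr4 was not called on FPKM values (adjusted p up to 0.0549), nor Sec24c there or with library size scaling (up to 0.431). Called were 25% of the translocon list, 8.33% of the oligosaccharyltransferase list and 25% of the transport list, beside 36.3% of all genes. With library size scaling 5 translocon genes rose and 2 fell, 6 oligosaccharyltransferase genes rose and 0 fell, and 5 transport genes rose and 1 fell. The KDEL receptors return chaperones such as BiP and GRP94 to the ER, and Kdelr3 reached at most 1.49 CPM in any liver. The 8 lists of the secretory pathway held 109 genes, of which 17 rose and 17 fell (31.2%, beside the 36.3% of all genes), with a median of -0.03. With library size scaling 36 rose and 9 fell.

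Of 12 cytosolic heat shock proteins 1 was called (8.33%, beside 36.3% of all genes). It was Hspa1a, which rose from 0.0893 to 1.12 CPM in the controls to 1.76 to 15.8 in KO livers (log2 fold change 3.85 ± 0.66, SE, adjusted p = 0.00148, edgeR). Hspa1a has a near-identical copy with which reads could be shared. In this list 2 genes were higher with library size scaling or without MCS 3. Without KO 4 or with the block, 1 was higher and 1 lower. With MCS 3 and KO 4 both left out, 3 were higher and 1 lower. The list median was 0.22, and -0.17 without KO 4. Hspa8, the constitutive cytosolic HSP70, was at 593 to 619 CPM in KO livers, at 509 to 690 in 5 controls and at 1463 in MCS 3 (-0.26 ± 0.28, adjusted p = 0.506).

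**Figure D5:**
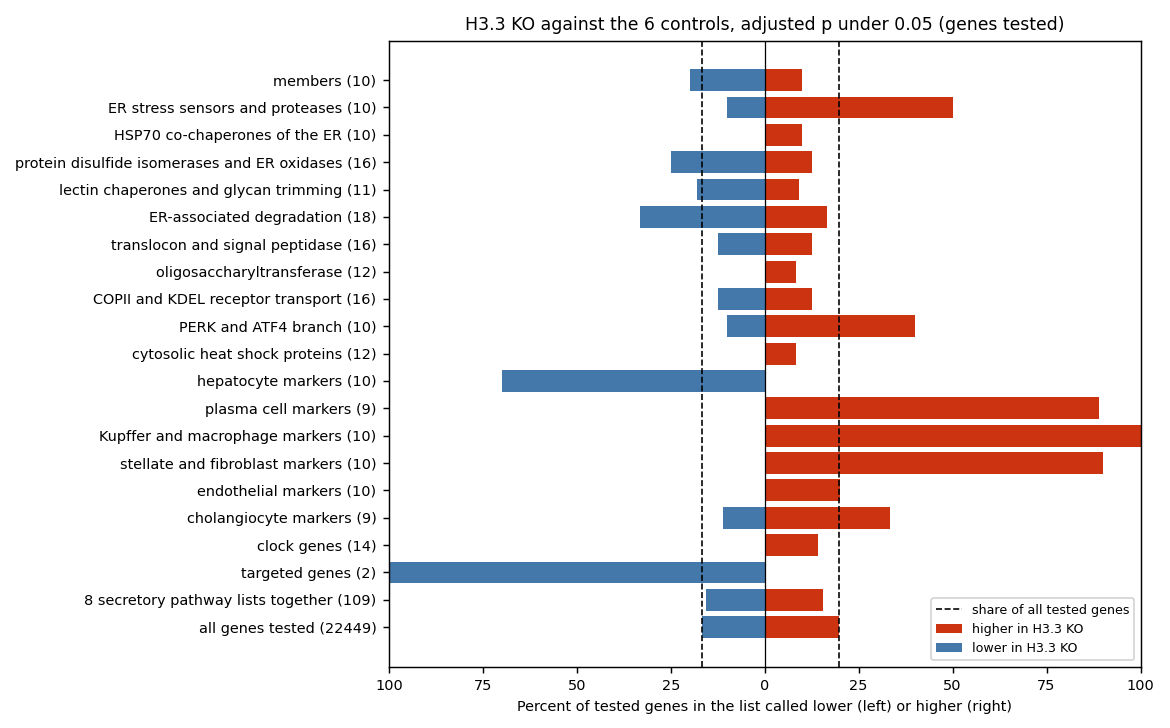
Percent of the tested genes of each list called higher (right) or lower (left) in H3.3 KO than in the 6 controls at an adjusted p under 0.05, with the number tested in brackets. Dashed lines give the shares over all genes tested, 19.7% and 16.6%, and the 10 members have 1 gene to the right and 2 to the left.

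Plasma cells and macrophages also use this pathway, and their markers rose in H3.3 KO livers. Over all genes tested 19.7% were called higher and 16.6% lower, and the counts below stand beside these shares. Of 9 plasma cell markers tested 8 rose, led by Irf4 and Prdm1, and the summed level of the list was 35.3 to 66.6 CPM in controls and 142 to 500 in KO livers, with the lowest value in KO 1. All 10 Kupffer cell and macrophage markers rose, led by C1qa and Cd5l, from 240 to 449 CPM in all to 563 to 1225. Of 10 stellate cell and fibroblast markers 9 rose, led by Col1a2 and Col1a1, from 221 to 282 CPM to 505 to 811. Endothelial markers summed to 313 to 390 CPM in controls and 335 to 546 in KO livers. Of these 10 markers 2 were higher (Cdh5 and Egfl7), or 20%, near the 19.7% of all genes. That count was 7 with library size scaling, 4 on FPKM values, 6 without KO 1, 3 without MCS 3, and 1 with no filter, with the block and without WT Cre 2, MCS 1, MCS 2, KO 2, KO 3 or KO 4. Cholangiocyte markers summed to 95.9 to 124 and 97.5 to 124 CPM, with 3 of 9 higher and 1 lower (Sox9 higher and Anxa4 lower had the smallest p, and Anxa4 was not called with library size scaling or on FPKM values).

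Of 10 hepatocyte markers 7 fell, led by Slc10a1 and Ttr, beside 16.6% of all genes called lower. The count was 3 against the WT Cre controls (median log2 fold change -0.40) and 8 against the MCS controls (-0.94), and against all controls it was 5 with no filter, on FPKM values or with the block, 6 without KO 1, 5 without KO 2 and 4 without KO 3. No listed marker was at 0 in all livers or in all controls. Of 14 clock genes, chosen because the hour of collection can move ER genes, 2 were higher, Ciart and Cry2 (14.3%, beside 19.7% of all genes). The count was 0 with MCS 3 and KO 4 both left out, and 4 with library size scaling. It was 2 against the WT Cre controls and 0 against the MCS controls, beside 28.4% and 32.0% of all genes called. Between the WT Cre and MCS controls 0 clock genes were called, beside 0.927% of all genes. The summed level of the clock genes was 329 to 572 CPM in controls and 474 to 566 in KO livers. The part of these markers in the levels of the members was not tested. Among the KO livers Dnajb9, the member that rose, was highest in KO 4 and lowest in KO 1, and so was Sdf2l1, which fell. The macrophage, stellate and endothelial sums were also highest in KO 4 and lowest in KO 1. The plasma cell sum was lowest in KO 1 (142 CPM) and highest in KO 2 (500 CPM), with 275 CPM in KO 4.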

How the data were processed

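The authors aligned poly(A) reads to mm10 with STAR, and deposited raw counts per gene and FPKM values. The paper names HOMER as the counter and the processing notes list HTSeq and Cufflinks, and the strand setting is not given in the sources used here. Hsp90b1, Herpud1, Dnajb9 and Pdia4 overlap other annotated genes in GENCODE M21 and their counts are less certain.

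The members and gene lists were chosen with earlier results of these data known. Genes whose counts summed to 10 or more over all livers were tested with edgeR 4.0.16 (quasi-likelihood, TMM, two-sided, Benjamini-Hochberg over all genes), the KO group against all controls, and in a fit of 3 groups against each kind. SE is the log2 fold change over the square root of F, and intervals are 95%. CPM for single livers are counts scaled to library size and TMM, and log2 CPM has a prior count of 2. No adjusted p was computed over a list alone. The named genes were the members, up to 3 higher and 2 lower genes of smallest p per list, 6 stress genes always, and up to 2 per marker list. Alternatives were DESeq2 1.42.0, library size scaling, other count filters, limma 3.58.1 on log2(FPKM + 1) and log2(FPKM + 0.1), each liver left out, and a replicate block. The code was tested on simulated data. Pairs of livers within a group differed by 11.5 to 109 times sampling noise, so none was a repeated library.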

Additional observations from a re-analysis of the deposited data

Results flagged for a closer look

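Among the 6 controls, MCS 3 stood apart from the nearest liver in CPM for 4 members, by a gap that took 0.713 of the whole range for Hspa5, 0.716 for Hsp90b1, 0.713 for Creld2 and 0.678 for Edem1, each past the 95% critical value of Dixon's test for 6 values. About 1 in 20 groups is past it by chance, 20 groups were looked at, and the members share libraries. No KO liver was past it for any member. The difference of Herpud1 between H3.3 KO and control livers depended on the kind of control, tested as the difference between the WT Cre and MCS controls, which was -1.19 on the log2 scale (adjusted p = 0.00117, edgeR).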

How the results depend on the processing

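Each liver and 8 other settings were tried, of which leaving out MCS 3 and KO 4 together was chosen after seeing the data. The count of members called against all controls was 3, and it was 1 with no filter on low counts, with limma on either FPKM scale and with the replicate block, and 1 to 3 with single livers left out, falling to 1 without KO 1 or KO 3. Against the MCS controls it was 1, and it was 3 with DESeq2, library size scaling and either FPKM scale, 2 with filterByExpr, the replicate block or both livers left out, and 1 to 2 with single livers left out (2 without WT Cre 1, MCS 2 or KO 1). Against the WT Cre controls it was 1, with 2 when both livers were left out, and 1 with each single liver left out. Herpud1 differed between the control groups under all settings tried.

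Dnajb9 was past the threshold under all settings but the replicate block (0.35, adjusted p = 0.0545), with 0.35 to 0.52 over single livers left out. Sdf2l1 was past it in 4 of 8 settings, and it was not with library size scaling (-0.43), with no filter (-0.62) and with limma on log2(FPKM + 1) (-0.36) and log2(FPKM + 0.1) (-0.37), and it ran from -0.74 to -0.46 over single livers left out. Herpud1 was not past it with no filter (-0.98), with limma on log2(FPKM + 1) (-0.67) and log2(FPKM + 0.1) (-0.68), with both livers left out (-0.85) and with the block (-0.96), and ran from -1.12 to -0.83 over single livers left out. The members' median ran from -0.14 to 0.24 over the 8 settings and from -0.17 to 0.13 over single livers left out. These medians differed from the main value by less than the SD of the members' median shift over the 6 controls. MCS 3 widens that SD, with a shift of 0.59 beside -0.28 to 0.04 in the other controls, so it is a loose yardstick.

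Members that did not pass changed sign in places. Calr was at 0.013 with DESeq2, 0.17 with library size scaling, 0.0081 with filterByExpr, 0.00097 with no filter, 0.22 on either FPKM scale, 0.092 with both livers left out and 0.020 with the block, and ran from -0.053 to 0.063 over single livers left out. Over single livers left out Hspa5 ran from -0.095 to 0.33, Xbp1 from -0.15 to 0.24 and Creld2 from -0.20 to 0.37. Hsp90b1, Pdia4 and Edem1 kept their sign throughout.

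With the replicate number as a block, the members called against all controls were 1 of 10, and Hspa5 was at -0.075, Xbp1 at -0.14 and Creld2 at -0.14. The numbers do not pair the livers, since deviations of livers with the same number correlated by -0.04 to 0.11.

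Library size scaling moved the median of all genes to 0.17. Over all genes, 72.2% of the calls against all controls were then higher, and 69.7% and 69.1% on the FPKM scales, beside 54.3%, and genes with an absolute log2 fold change over 1 numbered 1278 with limma on log2(FPKM + 1), beside 4199 (against the WT Cre controls 1131 beside 3566, and against the MCS controls 1379 beside 3926). Higher calls made up 65.5% against the WT Cre controls and 76.7% against the MCS controls with library size scaling, beside 54.0% and 53.9%, and on the FPKM scales 75.9% and 76.1% against the MCS controls. Between the control groups 208 genes were called, and 643 with DESeq2, 315 with no filter, 386 with the block and 70 to 517 with single livers left out, where leaving out any WT Cre liver, MCS 2 or MCS 3 gave 70 to 95, KO 4 gave 348 and KO 1 gave 517. Higher calls there made up 47.6%, and 68.8% with library size scaling, 66.5% and 69.2% on the FPKM scales and 58.6% without WT Cre 3. Calls of Creb3l3 ended without KO 2 or KO 3, of Tmed10 without WT Cre 1, WT Cre 2 or KO 3, of Ciart without KO 2, and of Cry2 without WT Cre 2, WT Cre 3, MCS 2 or KO 4. That of Faf2 ended without any single liver but KO 1, and that of Egfl7 without any but WT Cre 1 or WT Cre 3. Kdelr3, Creb3l1 and Derl3 had few counts, which limits their precision.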

Other observations

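The ratio between Hspa5 and Hsp90b1, the ER chaperones of the HSP70 and HSP90 families, differed between livers. Within each liver, the ratio of Hspa5 to Hsp90b1 was 1.08 to 1.15 in the 6 controls, MCS 3 included, when taken from CPM. It was 1.27, 1.23, 1.36 and 1.97 in KO 1 to 4, above all controls, and the ratio does not depend on how libraries are scaled. From FPKM it was 1.23 to 1.38 in the controls and 1.44, 1.36, 1.60 and 2.43 in KO 1 to 4, so that KO 2 then lay inside the range of the controls. The pair was chosen after its values were seen, and no test was run.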
